A study of Mus musculus with 24 samples.

Results

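The genes described here encode the subunits of the proteasome, taken as every probe for a gene whose symbol starts with Psma, Psmb, Psmc, Psmd, Psme or Psmf. The array held 56 such probes for 45 genes. The scanner flags each spot that stands well above its background. A probe was kept where all arrays of some group carried that flag, and 54 probes for 43 genes were kept, out of 21040 kept probes for 12474 named genes. Psma8 and Psmb11, the subunits of testis and of thymus, were well above background on 0 of the 24 arrays and have no values below. Of the 43 genes, 42 encode a proteasome subunit, activator, inhibitor or assembly chaperone, and Psmc3ip, a cofactor of meiotic recombination, shares the prefix alone.

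Total RNA of mouse right ventricle had been hybridised to 24 one-colour Agilent arrays. The groups were 10 ventricles from sham-operated mice and ventricles from mice with PSPI, a surgery that puts the right ventricle under pressure and volume overload, at month 1 (5 arrays), month 2 (5 arrays) and month 3 (4 arrays). The strain label of every sample reads M/FVB/10-12 and no genetic change is named. The sham titles give no month, so the same 10 shams served each month, and the comparisons with sham share them. The labels do not say that each array is a separate mouse, so p-values refer to the spread among these arrays, part of which may be technical. In whole ventricle, fewer cells of a type and less RNA per cell cannot be told apart.

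The proteasome degrades proteins tagged with ubiquitin. Its barrel-shaped 20S core has outer rings of alpha subunits (Psma) and inner rings of beta subunits (Psmb), of which Psmb5, Psmb6 and Psmb7 carry the chymotrypsin-like, caspase-like and trypsin-like active sites. Under interferon-gamma, and constitutively in many immune cells, Psmb8, Psmb9 and Psmb10 are built in instead of Psmb5, Psmb6 and Psmb7, and the resulting immunoproteasome favours peptides that load onto MHC class I. The 19S cap (Psmc ATPases and Psmd subunits) recognises, unfolds and feeds in substrates, and 11S activators (Psme) open the core without ubiquitin.

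The promoters of the subunits that the results turn on are shown because the partners of a catalytic site are under different known regulators. The transcription factor Nrf1 (Nfe2l1) drives the common subunits through antioxidant response elements, and interferon signals act through gamma-activated sites and interferon response elements. RefSeq promoters on GRCm38.p6 matched 37 of the 43 genes, with 40 promoters, and the 250 bases before each start were searched on both strands for TGACNNNGC (antioxidant response element), TTCNNNGAA (gamma-activated site), GAAANNGAA (interferon response element core) and CCAAT (NF-Y box). Capitals mark a match, and each sequence is written 5′ to 3′ on the strand of its gene.
Psmb8: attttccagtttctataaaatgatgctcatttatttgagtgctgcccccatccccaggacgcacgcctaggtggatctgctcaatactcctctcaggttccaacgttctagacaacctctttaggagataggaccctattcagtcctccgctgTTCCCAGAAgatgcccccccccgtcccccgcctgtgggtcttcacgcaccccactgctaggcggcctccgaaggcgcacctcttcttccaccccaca
Psmb9: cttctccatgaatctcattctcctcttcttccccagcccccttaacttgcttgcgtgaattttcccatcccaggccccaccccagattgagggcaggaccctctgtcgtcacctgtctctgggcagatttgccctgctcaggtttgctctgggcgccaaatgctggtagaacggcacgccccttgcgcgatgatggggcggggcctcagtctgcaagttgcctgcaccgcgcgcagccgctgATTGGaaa
Psmb10: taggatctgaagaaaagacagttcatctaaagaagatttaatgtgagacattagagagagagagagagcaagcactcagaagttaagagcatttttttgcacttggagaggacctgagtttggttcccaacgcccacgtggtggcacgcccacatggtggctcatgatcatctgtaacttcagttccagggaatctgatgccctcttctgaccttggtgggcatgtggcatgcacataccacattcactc
Psmb5: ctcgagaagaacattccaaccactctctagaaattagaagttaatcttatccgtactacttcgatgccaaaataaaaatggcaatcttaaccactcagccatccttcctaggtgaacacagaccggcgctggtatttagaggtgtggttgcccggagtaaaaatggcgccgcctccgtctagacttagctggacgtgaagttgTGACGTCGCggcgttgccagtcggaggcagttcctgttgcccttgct
Psmb6: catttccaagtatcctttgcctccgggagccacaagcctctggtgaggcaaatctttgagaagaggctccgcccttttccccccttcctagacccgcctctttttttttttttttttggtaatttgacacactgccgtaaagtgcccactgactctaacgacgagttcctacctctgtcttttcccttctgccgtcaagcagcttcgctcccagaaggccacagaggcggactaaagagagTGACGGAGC

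Psmb8 (chr17:34197945-34198194, plus strand) held the gamma-activated site letters TTCCCAGAA from 97 to 89 bases before its start, the only match among the 40 member promoters (2.5%, against 7.02% of all 32851 promoters). Psmb9 (chr17:34187331-34187580, minus strand) held an NF-Y box on the opposite strand, read as ATTGG, from 8 to 4 bases before its start, and 35% of member promoters and 33.8% of all promoters held one. Psmb10 (chr8:105938393-105938642, minus strand) held none of the motifs. The constitutive partners Psmb5 (chr14:54617996-54618245, minus strand) and Psmb6 (chr11:70525107-70525356, plus strand) held the antioxidant response element letters TGACGTCGC, from 47 to 39 bases, and TGACGGAGC, from 9 to 1 bases before their starts. That motif was in 5 of 40 member promoters (12.5%: Psmb5, Psmb6, Psmc6, Psmd9 and Psmd12) and in 10.2% of all promoters. Psmb7, the remaining constitutive partner, was among the genes without a matched promoter and was not searched. The interferon response core was in 3 of 40 (7.5%, against 7.13%), in Psmb3, Psmd4 and Psmd9. A match is a run of letters and was not tested as a binding site. The gene pair Psmb9 and Tap1, the latter a subunit of the peptide transporter for class I loading, start 226 bases apart on opposite strands, and Psmb9, Tap1, Psmb8 and Tap2 lie in that order on chr17:34182030-34216321 inside the MHC region.

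Levels are given as log2 of the processed signal minus the array's 75th percentile over 16946 probes that were well above background on every array, so that a level of 0 lies at that percentile. A level compares arrays and never probes. Changes are log2 differences between group means ± SE from limma over all 12474 genes, and a gene is said to have risen or fallen where the Benjamini-Hochberg adjusted p was under 0.05.

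Between 36.1% and 56.1% of probes were well above background per array (median 41.0%), and no member probe was saturated or without a value. The shams were spread over 2 of the 3 slides (7 on slide 1, 3 on slide 3), and the months over all 3 slides: 1, 3 and 1 month 1 arrays on slides 1, 2 and 3, 4 and 1 month 2 arrays on slides 2 and 3, and 1 and 3 month 3 arrays on slides 2 and 3. Markers of ventricular cardiomyocytes were kept in 8 of 8 cases and those of lung epithelium in 0 of 4. Some arrays stood apart before any group was compared. The level of Myh7, the slow myosin heavy chain, was 1.62 to 2.52 on 9 arrays (Sham 1 to 5 and 10, and month 1 samples 2 to 4) and 4.67 to 5.91 on the other 15. Myl7, an atrial myosin light chain, was at 3.48 to 3.53 in Sham 3, 4 and 10 and at -7.89 to 2.19 elsewhere. In 7 of 276 pairs of arrays, all within a group, 1 minus the correlation over the 100 genes that varied most within groups was under 0.1. Averaging the arrays of each such pair or trio left 18 samples (6 sham, 5, 4 and 3), and the calls that this step removed are named with the counts of members.

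Psmb8, Psmb9 and Psmb10, the catalytic subunits of the immunoproteasome, were each higher in month 3 PSPI ventricles than in sham, by 1.77-fold, 1.67-fold and 1.41-fold. Their constitutive partners Psmb5 and Psmb7 differed from sham by 0.01 and 0.05 (log2) in that month, and Psmb6 fell. The median change of all 43 genes in month 3 was -0.02, beside -0.04 over all genes tested.

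The level of Psmb8 in month 3 was -1.92, -0.99, -1.32 and -1.26 in samples 1 to 4. The shams lay between -2.69 and -1.98, with a median of -2.15. All 4 month 3 arrays lay above every sham, and sample 1, the only one on slide 2, was the lowest of them. In month 1 the levels were -1.62, -1.63, -1.60, -1.76 and -1.96, again above every sham on 5 of 5 arrays. In month 2 they were -2.03, -2.26, -1.70, -1.48 and -2.30, which overlapped the shams. Psmb8 was higher than sham by 0.82 ± 0.16 in month 3 (limma adjusted p = 0.00035) and by 0.51 ± 0.11 over the 3 months weighted equally (adjusted p = 0.00248). The month 1 difference of 0.48 ± 0.14 did not pass (adjusted p = 0.173), nor did that of month 2 (0.24, adjusted p = 0.272).

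The level of Psmb9 in month 3 was -1.49, -0.75, -0.89 and -0.94. The shams lay between -2.04 and -1.51 (median -1.75), so all 4 month 3 arrays lay above every sham, sample 1 by the smallest margin. Month 1 arrays were at -1.37, -1.22, -1.37, -1.80 and -1.46, of which 4 of 5 exceeded every sham. Month 2 arrays were at -2.02, -1.75, -1.47, -1.29 and -1.91 and spanned the shams. Psmb9 rose by 0.74 ± 0.14 in month 3 (limma adjusted p = 0.00030) and by 0.37 ± 0.097 over all months (adjusted p = 0.00835). The changes in month 1 (0.31, adjusted p = 0.305) and month 2 (0.07, adjusted p = 0.764) did not pass.

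The level of Psmb10 was 2.28, 2.44, 2.41 and 2.65 in month 3, against 1.36 to 2.32 in the shams (median 2.03). Here 3 of 4 month 3 arrays lay above every sham. Its levels also differed among the arrays that stood apart: Psmb10 was at 1.36 to 1.72 in Sham 3, 4 and 10, the arrays with high Myl7, at 2.08 to 2.32 in Sham 6 to 9, and at 1.60, 1.81 and 1.56 in month 1 samples 2 to 4. The other 2 month 1 arrays were at 2.42 and 2.16, and the month 2 arrays at 2.44, 1.92, 2.29, 2.19 and 2.31. Psmb10 rose by 0.50 ± 0.16 in month 3 (limma adjusted p = 0.0170), and its change over all months was 0.25 ± 0.11 (adjusted p = 0.102). Without Sham 3, 4 and 10 the month 3 value was 0.34 (adjusted p = 0.0690). It was 0.43 and no longer passed without month 3 sample 4.

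The probes lie at chr17:34337771-34337830 (Psmb8), chr17:34319174-34319233 (Psmb9) and chr8:108459677-108459736 (Psmb10) on mm9, the build of the file headers.

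**Figure D1:**
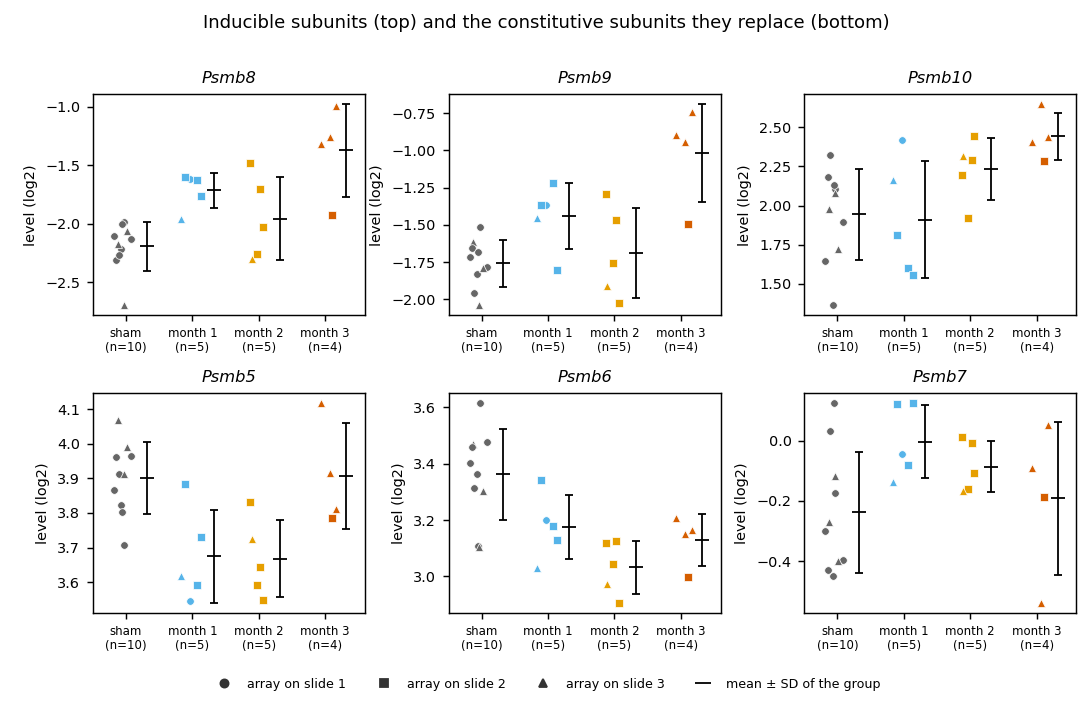
Level (log2 processed signal minus the array's 75th percentile) of the immunoproteasome subunits Psmb8, Psmb9 and Psmb10 and of their constitutive partners Psmb5, Psmb6 and Psmb7 on each of the 24 arrays, by group, with marker shape for the slide and bars for the group mean ± SD. All 4 month 3 arrays lie above every sham for Psmb8 and Psmb9, and 3 of 4 do for Psmb10, while Psmb5 and Psmb7 overlap the shams.

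With slide as a fixed block, the month 3 changes were 0.93 for Psmb8, 0.81 for Psmb9 and 0.67 for Psmb10, all past the threshold (limma adjusted p = 0.00144, 0.00161 and 0.00737). Within slide 3 alone, with 3 shams and 3 month 3 arrays, they were 1.12 (adjusted p = 0.0218), 0.95 (adjusted p = 0.0167) and 0.57 (adjusted p = 0.0549). With close arrays averaged they were 0.74 (adjusted p = 0.0101), 0.66 (adjusted p = 0.0121) and 0.44 (adjusted p = 0.0920). The month 3 calls of Psmb8 and Psmb9 were kept in each of 16 other settings and in each of 24 fits that left out 1 array. Over all months, the Psmb8 call was lost within slide 3 alone (0.49, adjusted p = 0.356) and without month 3 (0.36, adjusted p = 0.0566), and that of Psmb9 in 4 settings, among them slide 3 alone (0.41, adjusted p = 0.335) and close arrays averaged (0.36, adjusted p = 0.0702).

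Among the constitutive catalytic subunits, Psmb6, the partner of Psmb9, fell. Its levels were 3.00, 3.16, 3.21 and 3.15 in month 3 and 2.90, 3.04, 3.12, 3.12 and 2.97 in month 2. The shams lay between 3.104 and 3.617 (median 3.38), and month 1 arrays between 3.03 and 3.34. All 14 PSPI arrays lay below the sham mean, and 5 of them below every sham (1, 3 and 1 by month). Psmb6 fell by 0.25 ± 0.060 over all months (limma adjusted p = 0.00545), by 0.33 ± 0.079 in month 2 (adjusted p = 0.0106) and by 0.23 ± 0.086 in month 3 (adjusted p = 0.0362). With slide as a block the all-months value was -0.21 (adjusted p = 0.103). The month 2 call was lost in 3 of 16 other settings: with that block (-0.30, adjusted p = 0.101), within slide 3 alone (-0.32, adjusted p = 0.833) and with close arrays averaged (-0.30, adjusted p = 0.103). The month 3 call was lost in 6 of 16 other settings, with values from -0.25 (close arrays averaged) to -0.12 (within slide 3 alone, adjusted p = 0.593), among them without Sham 3, 4 and 10 (-0.23, adjusted p = 0.0699), and in 8 of 24 fits that left out 1 array (Sham 1, 2, 3, 5 and 6 and month 3 samples 1, 2 and 4).

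Psmb5, the partner of Psmb8, was at 3.55, 3.59, 3.64, 3.83 and 3.72 in month 2, and 3 of 5 of these arrays lay below every sham (shams 3.71 to 4.07, median 3.91). Its month 3 arrays, at 3.78, 3.81, 4.12 and 3.92, lay on both sides of the sham mean. Psmb5 fell by 0.23 ± 0.074 in month 2 (limma adjusted p = 0.0385), a call lost in 9 of 24 fits that left out 1 array (Sham 2, 3, 5, 6 and 10 and month 2 samples 1, 2, 3 and 5) and in 11 of 16 other settings (the value nearest 0 was -0.03, adjusted p up to 0.860). Its change was -0.15 ± 0.056 over all months (adjusted p = 0.0529). A second Psmb5 probe, dimmer and nearby, gave 0.18 in month 2 (adjusted p = 0.396), so the probes of this gene disagreed in sign. Psmb7, the partner of Psmb10, was at -0.45 to 0.13 in the shams, -0.14 to 0.12 in month 1, -0.17 to 0.01 in month 2 and -0.54 to 0.05 in month 3. It did not pass in any month or over all months (0.14 ± 0.076, adjusted p = 0.168).

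Each immunoproteasome subunit was set against its partner by centring both on their sham means and subtracting. This is a score over members and is given without a test. The mean of the 3 differences lay between -0.17 and 0.16 in the shams (SD 0.109). It was 0.31 ± 0.22 (SD) in month 1 and 0.34 ± 0.15 in month 2, with 4 of 5 arrays above every sham in each. In month 3 it was 0.75 ± 0.25, with single arrays at 0.43, 0.90, 0.66 and 0.99, all above every sham. The difference of Psmb9 and Psmb6 averaged 0.50, 0.40 and 0.97 in months 1, 2 and 3, and that of Psmb8 and Psmb5 0.71, 0.47 and 0.81. The difference of Psmb10 and Psmb7 averaged -0.27 in month 1, 0.14 in month 2 and 0.45 in month 3, where 1 of 4 arrays lay above every sham. The trypsin-like pair was thus the one whose month 3 values overlapped the shams on most arrays.

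**Figure D2:**
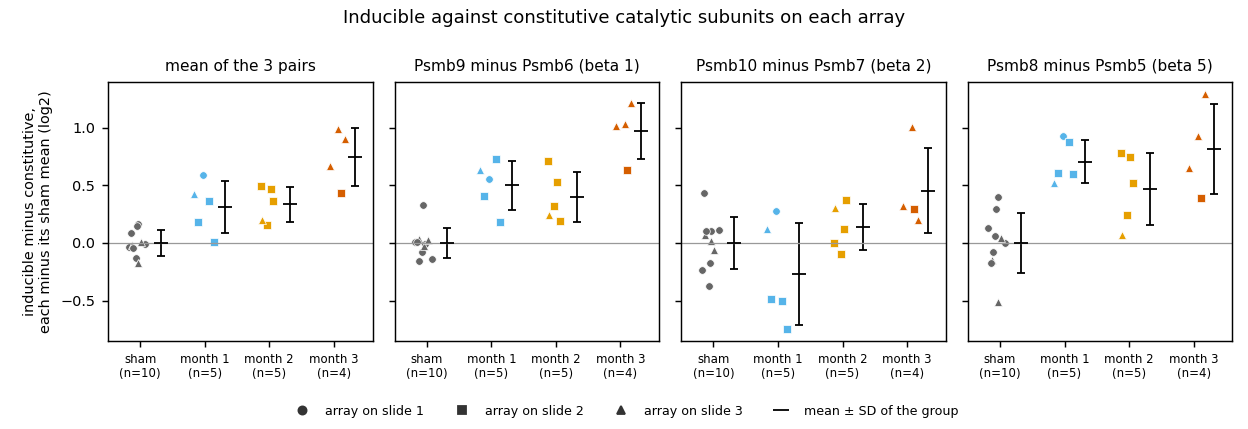
Immunoproteasome minus constitutive level on each array (log2, each gene centred on its sham mean), as the mean of the 3 pairs and for each pair, by group, with marker shape for the slide and bars for the group mean ± SD. The mean of the pairs lies above every sham on all 4 month 3 arrays, and for Psmb10 minus Psmb7 on 1 of 4.

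Over all months, 2 of 43 genes rose (Psmb8 and Psmb9; 4.65%, where 10.8% of all genes rose) and 4 fell (Psmb6, Psmb2, Psmc2 and Psmd12; 9.30%, where 13.6% of all genes fell). In month 1, 0 of 43 rose and 0 fell, as 0% of all genes passed in each direction by limma, while at an unadjusted p under 0.05 there were 6 members and 1514 genes. In month 2, 1 rose (Psmd9; 6.39% of all genes rose) and 3 fell (Psmb5, Psmb6 and Psmc2; 8.08% of all genes fell). In month 3, 7 rose, where 17.2% of all genes rose, and 9 fell, where 21.7% of all genes fell. With close arrays averaged, the calls of Psmb9, Psmb6, Psmb2 and Psmd12 over all months and those of Psmd9, Psmb5, Psmb6 and Psmc2 in month 2 were lost. In month 3 that step removed the calls of Psmb10, Psmc1, Psmc5 and Psmd4 among the higher genes and of Psmb6, Psma1, Psmc6, Psmd6 and Psmc3ip among the lower. The share of members called in month 3 was 37.2%, near the 38.9% of all genes. Arrays of month 3 and sham did not overlap for 3 genes that were higher (Psmb8, Psmb9 and Psmd13; 5.72% of all genes) and 3 that were lower (Psmb2, Psmc2 and Psmd12; 6.64% of all genes).

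The split of calls moved with the scaling. In month 3, 44.3% of the calls over all genes were higher as reported, 22.5% when every probe entered the 75th percentile, 29.8% after quantile normalization, 63.4% after normexp background correction and 65.7% from the deposited table of background-subtracted signals. The members higher and lower were 7 and 9 as reported, 2 and 17, 5 and 14, 4 and 8, and 4 and 8 in the same order. The median change of all genes in month 3 was -0.04, -0.20, -0.13, 0.09 and 0.11. Over all months the share higher was 44.3%, 24.7%, 31.7%, 61.7% and 62.6%, with members at 2 and 4, 2 and 11, 2 and 9, 2 and 4, and 2 and 4. Psmb8 and Psmb9 rose and Psmb2 fell in month 3 under every one of these scalings. With slide as a block 3 members rose and 9 fell in month 3, within slide 3 alone 2 rose and 1 fell, and with close arrays averaged 3 rose and 4 fell. Leaving out month 3 sample 4 gave 4 and 5.

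**Figure D3:**
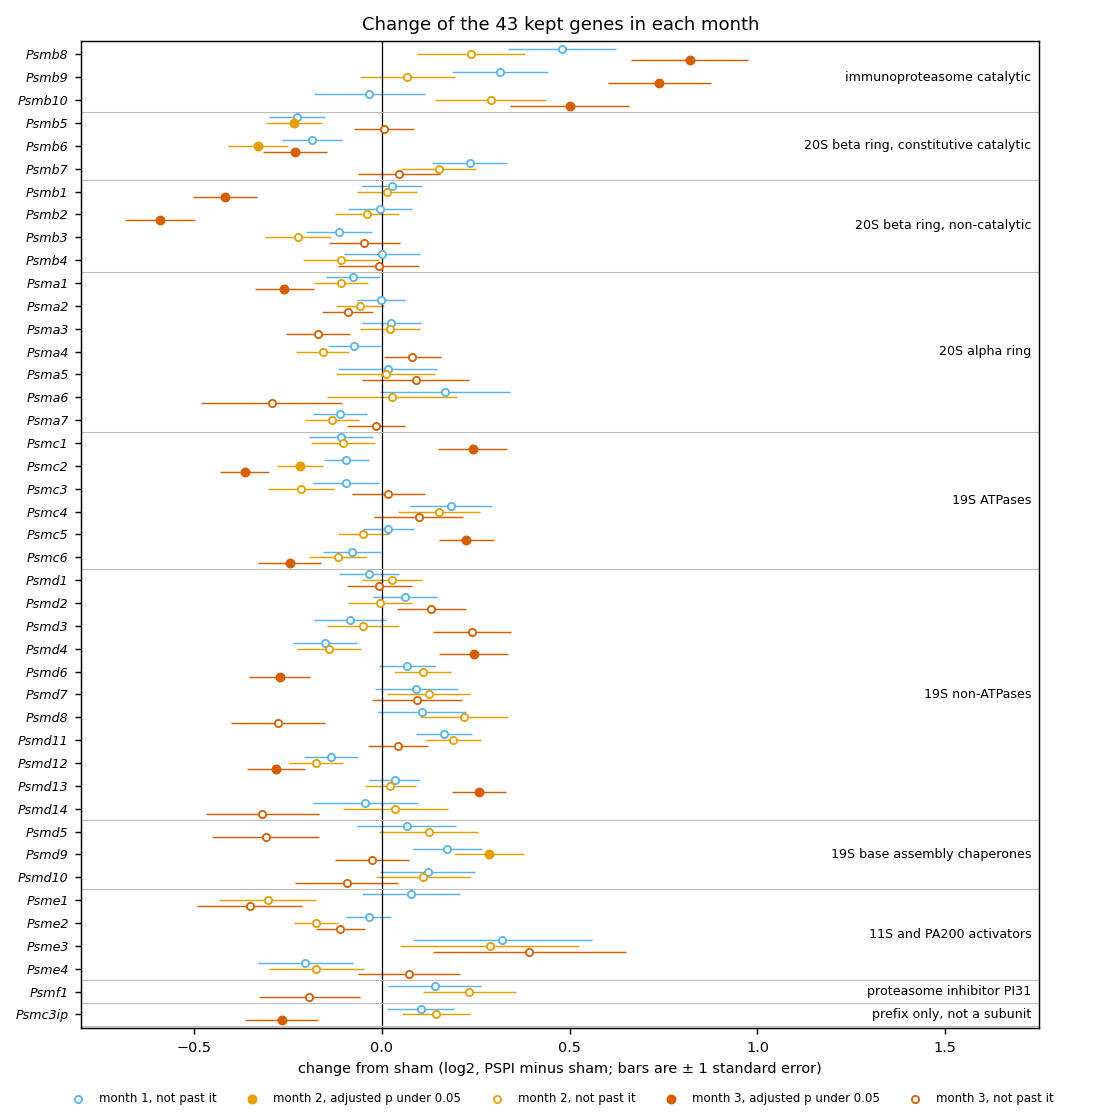
Log2 change from sham in months 1, 2 and 3 for each of the 43 genes, grouped by role, with bars of 1 SE on each side and filled points where the limma adjusted p was under 0.05. Psmb8 and Psmb9 have the largest increases in month 3 (0.82 and 0.74) and Psmb2 the largest decrease (-0.59).

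Of the 7 subunits of the alpha ring, which gates the core, 0 passed over all months, where 24.4% of all genes did, and 1 in month 3, where 38.9% did and the median change of the ring was -0.09. Psma1 was at 1.76, 1.39, 1.58 and 1.44 in month 3 against 1.56 to 1.95 in the shams (median 1.84), and 2 of 4 arrays lay below every sham. It fell by 0.26 ± 0.078 in month 3 (limma adjusted p = 0.0119), a call lost without month 3 sample 2 (-0.21), within slide 3 alone (-0.31, adjusted p = 0.200) and with close arrays averaged (-0.25, adjusted p = 0.0538). The other alpha subunits changed by -0.29 (Psma6) to 0.09 (Psma5) and did not pass. A second Psma4 probe gave -0.25 in month 3 (adjusted p = 0.00737 over all kept probes) where the brighter one gave 0.08 (adjusted p = 0.425).

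Of the 4 beta subunits without an active site, Psmb1 and Psmb2 fell in month 3, where 21.7% of all genes fell. Psmb3 and Psmb4 were at -0.05 and -0.01. Psmb2 was at -2.37, -2.66, -2.48 and -3.00 in month 3. The shams lay between -2.16 and -1.82, so all 4 month 3 arrays lay below every sham, while month 1 (-2.26 to -1.87) and month 2 (-2.17 to -1.98) overlapped them. Psmb2 fell by 0.59 ± 0.092 in month 3 (limma adjusted p = 5.31e-05), the largest decrease among the members. That call was kept with slide as a block (-0.57, adjusted p = 0.00112), within slide 3 alone (-0.68, adjusted p = 0.0449), with close arrays averaged (-0.62, adjusted p = 0.00296), in each of the 16 other settings, and in each of 24 fits that left out 1 array. Its change over all months (-0.21 ± 0.065, adjusted p = 0.0215) was lost in 10 of 16 other settings and was -0.02 without month 3.

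Psmb1 was at 0.82, 0.56, 0.64 and 0.37 in month 3 against 0.69 to 1.23 in the shams (median 1.01), and 3 of 4 arrays lay below every sham. It fell by 0.42 ± 0.086 (limma adjusted p = 0.00071), and within slide 3 alone the value was -0.52 (adjusted p = 0.0501). The probes of Psmb1 (chr17:15630098-15631393) and Psmb2 (chr4:126361456-126364299) span an intron on mm9. Sample 4 was the lowest month 3 array for both genes.

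**Figure D4:**
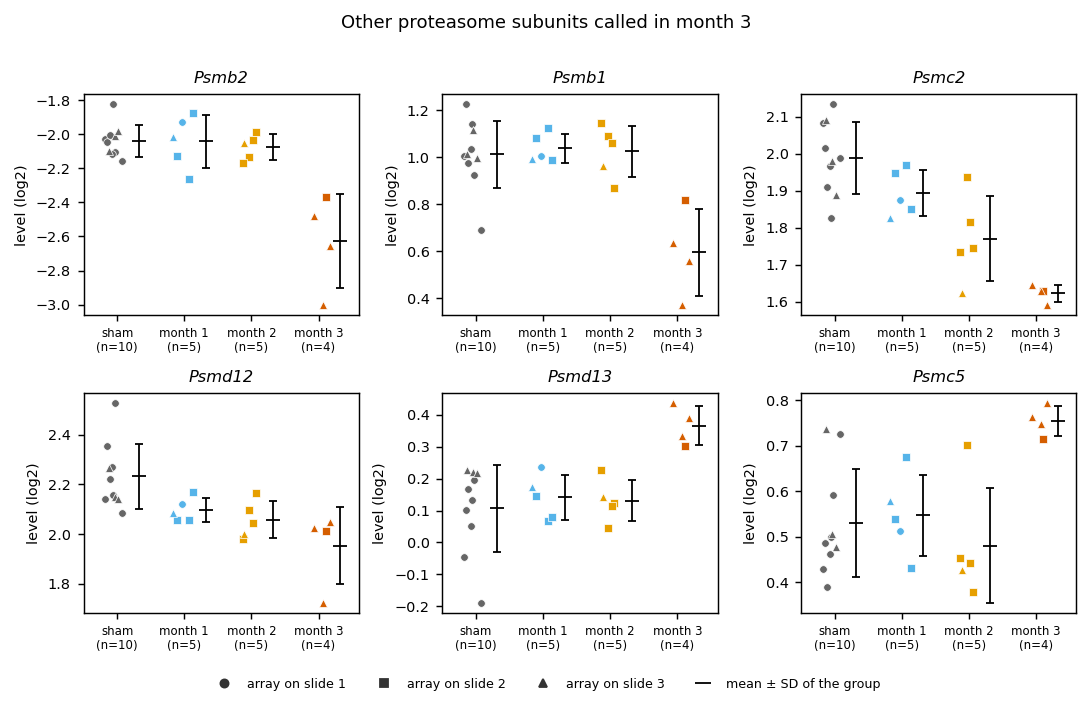
Level (log2 processed signal minus the array's 75th percentile) on each array of further subunits that passed the test, by group, with marker shape for the slide and bars for the group mean ± SD. Psmb2, Psmc2 and Psmd12 lie below every sham on all 4 month 3 arrays, and Psmd13 above every sham on all 4.

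Of 6 ATPases of the 19S cap, Psmc2 and Psmc6 fell and Psmc1 and Psmc5 rose in month 3. Of all genes, 21.7% fell and 17.2% rose in that month. Psmc2 was at 1.63, 1.59, 1.64 and 1.63 in month 3 against 1.83 to 2.13 in the shams (median 1.98). The 4 month 3 arrays lay below every sham, month 2 ran from 1.62 to 1.94 and month 1 from 1.83 to 1.97, and all 14 PSPI arrays lay below the sham mean. Psmc2 fell by 0.36 ± 0.066 in month 3 (limma adjusted p = 0.00021), by 0.22 ± 0.061 in month 2 (adjusted p = 0.0211) and by 0.23 ± 0.046 over all months (adjusted p = 0.00185). Its other probe, which overlaps the first on chr5:21309546-21309602 (mm9), fell by 0.45 in month 3. The all-months value was -0.27 with slide as a block (adjusted p = 0.0141) and -0.29 within slide 3 alone (adjusted p = 0.368), and the month 3 value within slide 3 was -0.36 (adjusted p = 0.0985). The month 2 call was lost without month 2 sample 1, 4 or 5 (-0.21, -0.21 and -0.18) and in 4 of 16 other settings.

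Psmc5 was at 0.72, 0.79, 0.76 and 0.75 in month 3 against 0.39 to 0.74 in the shams, and 3 of 4 arrays lay above every sham. It rose by 0.22 ± 0.073 (limma adjusted p = 0.0194), and Psmc1, at 3.31, 3.20, 3.51 and 3.25 against 2.84 to 3.23, rose by 0.24 ± 0.092 (adjusted p = 0.0414). Psmc6 was at -0.06, -0.38, -0.33 and -0.40 against -0.28 to 0.11 and fell by 0.25 ± 0.084 (adjusted p = 0.0241). Neither increase passed with slide as a block, within slide 3 alone or with close arrays averaged. The Psmc6 call was lost without month 3 sample 2, 3 or 4 (-0.22, -0.23 and -0.21), that of Psmc5 without sample 2 (0.21), and that of Psmc1 in 8 fits that left out 1 array (Sham 1, 2, 3, 4 and 10 and month 3 samples 1, 3 and 4). In 16 other settings, the calls of Psmc6, Psmc5 and Psmc1 were lost in 7, 9 and 10. Psmc3 and Psmc4 were at 0.02 and 0.10 and did not pass.

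Of the 11 other 19S subunits, Psmd4 and Psmd13 rose and Psmd6 and Psmd12 fell in month 3, and the median was 0.04. Of all genes, 17.2% rose and 21.7% fell in that month. Psmd12, Psmd13 and Psmd6 belong to the lid that holds the deubiquitinase Psmd14, and Psmd4 is a ubiquitin receptor. Psmd12 was at 2.01, 2.05, 2.02 and 1.72 in month 3, all below the lowest sham (2.09, with a median of 2.19 and a highest of 2.53). It fell by 0.28 ± 0.077 in month 3 (limma adjusted p = 0.00656) and by 0.20 ± 0.054 over all months (adjusted p = 0.0116), with all 14 PSPI arrays below the sham mean, and the latter call was lost in 7 of 16 other settings. A second, dimmer Psmd12 probe gave 0.27 in month 3 (adjusted p = 0.0839), and the mean of both probes -0.01 (adjusted p = 0.953). With slide as a block the month 3 value was -0.25 (adjusted p = 0.0525).

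Psmd13 was at 0.30, 0.39, 0.44 and 0.33 in month 3, above every sham (-0.19 to 0.23, median 0.15) on 4 of 4 arrays. It rose by 0.26 ± 0.072 (limma adjusted p = 0.00758), and with slide as a block the value was 0.21 (adjusted p = 0.0641). Psmd4 was at 2.61, 3.15, 3.11 and 2.94 against 2.55 to 2.89, with sample 1 again the lowest of month 3, and rose by 0.25 ± 0.092 (adjusted p = 0.0386). That call was lost in 8 of 24 fits that left out 1 array (Sham 2, 3, 4, 8 and 9 and month 3 samples 2, 3 and 4) and in 12 of 16 other settings, where the lowest value was 0.083. Psmd6 was at 0.21, -0.07, -0.13 and -0.40 against 0.02 to 0.36 and fell by 0.27 ± 0.082 (adjusted p = 0.0127), or by 0.17 without sample 4, where it did not pass. The other 7 subunits did not pass in month 3, with changes from -0.32 (Psmd14) to 0.24 (Psmd3).

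Of the chaperones that assemble the 19S base (Psmd5, Psmd9 and Psmd10), Psmd9 rose in month 2, from -2.92 to -2.35 in the shams to -2.22, -2.35, -2.28, -2.18 and -2.49. The change was 0.29 ± 0.092 (limma adjusted p = 0.0407) and was -0.03 in month 3. The month 2 call was lost in 9 of 24 fits that left out 1 array (Sham 2, 3, 4, 5 and 10 and month 2 samples 1 to 4). It was also lost in 10 of 16 other settings. A second, dimmer Psmd9 probe gave 0.12 in month 2 and did not pass (limma adjusted p = 0.616 over all kept probes). Of the activators, 0 of 4 passed in any month, where 0%, 14.5% and 38.9% of all genes passed in months 1, 2 and 3. Psme1 and Psme2 encode the 11S activator that interferon-gamma induces along with the immunoproteasome, and here their values were below sham: Psme1 was at 1.62, 1.90, 1.90 and 1.62 in month 3 against 1.82 to 2.44 (-0.35 ± 0.14, adjusted p = 0.0503) and Psme2 at -0.11 ± 0.064 (adjusted p = 0.179). Psme2 had 3 kept probes that differed in month 3: the brightest gave -0.11 and the second -0.29 (limma adjusted p = 0.00330). The third gave 0.97 (limma adjusted p = 0.00171). That probe was dim (mean level -5.75), was well above background on only 16 of 24 arrays and is placed over chr14:56209736-56429032 on mm9. Its value is not counted. Psme3 and Psme4 were at 0.39 and 0.07, and the inhibitor Psmf1 at -0.19, and did not pass. Psmc3ip, the gene that shares the prefix alone, fell by 0.27 ± 0.097 in month 3 (limma adjusted p = 0.0344). That call was lost without Sham 4 (-0.24), Sham 10 (-0.24) or month 3 sample 3 (-0.26) or 4 (-0.22), and in 9 of 16 other settings.

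Months were also compared directly. Between month 2 and month 1, 0 of 43 genes passed by limma (0.016% of all genes, 2 in number, and 1 member at an unadjusted p under 0.05). Between month 3 and month 2, 11 passed (18.7% of all genes): Psmb8, Psmb9, Psmc1, Psmc5, Psmd4 and Psmd13 were higher in month 3 and Psmb1, Psmb2, Psmd6, Psmd8 and Psmc3ip lower. Psmb9 was higher in month 3 than in month 2 by 0.67 ± 0.16 (adjusted p = 0.00451) and Psmb8 by 0.58 ± 0.18 (adjusted p = 0.0232). Psmb2 was lower by 0.55 ± 0.10 (limma adjusted p = 0.00085). Against month 2, the Psmb8 call was lost in 8 of 17 other settings and its sign turned in 1 more. The calls of Psmb9 and Psmb2 were lost in 4 and 2 of these settings. Between month 3 and month 1, 13 passed (28.5% of all genes), among them Psmb10, higher by 0.53 ± 0.18 (adjusted p = 0.0312), and Psmb9, higher by 0.42 ± 0.16 (adjusted p = 0.0452). Psmb8 did not pass there (0.34). Against month 1, the Psmb9 call was lost in 12 of 24 fits that left out 1 array and in 11 of 17 other settings. Its sign turned in 1 more setting (-0.028 within slide 2 alone). The Psmb10 call against month 1 was lost in 6 of these fits and 8 of these settings. Most month 2 arrays lay on slide 2 and most month 3 arrays on slide 3. With slide as a block 4 and 6 members passed, within slide 2 alone, where month 3 is 1 array, 0 and 1, and within slide 3 alone, where month 1 and month 2 are 1 array each, 0 and 0. Without month 3 sample 1 the counts were 19 and 20, without sample 2 they were 6 and 7, without sample 3 they were 7 and 6, and the second count was 5 without month 3 sample 4 and 7 without month 1 sample 4. Within slide 2, Psmb8 in month 3 was -0.056 against month 2, the opposite sign.

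Genes around the proteasome were read from lists by role. Of 10 other subunits and assembly factors, 1 rose and 3 fell over all months, and the median was -0.07. Of all genes, 10.8% rose and 13.6% fell there. Psmg1, a chaperone of alpha ring assembly, fell by 0.34 ± 0.063 (limma adjusted p = 0.00099), and its partner Psmg2 fell by 0.17 ± 0.054 (adjusted p = 0.0253; lost without Sham 5, -0.15). Pomp, the maturation factor of the core, fell by 0.13 ± 0.046 over all months (adjusted p = 0.0362), lost in 8 of 24 fits that left out 1 array (Sham 2, 6, 7 and 9, month 1 samples 3 and 4, month 2 sample 1 and month 3 sample 4), and was at -0.01 in month 3. Adrm1, a ubiquitin receptor of the cap, rose by 0.25 ± 0.074 (limma adjusted p = 0.0187). In 16 other settings, the calls over all months were lost in 1 for Psmg1, 6 for Psmg2, 8 for Pomp and 5 for Adrm1.

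Of 8 genes of the Nrf1 pathway, which restores proteasome gene expression when the proteasome is inhibited, 2 rose and 1 fell over all months. In that comparison 10.8% of all genes rose and 13.6% fell. Nfe2l1 itself changed by 0.17 ± 0.10 over all months (limma adjusted p = 0.231) and rose by 0.40 ± 0.15 in month 3 (adjusted p = 0.0369). The month 3 call was lost without Sham 4 (0.37), 6 (0.37), 7 (0.36) or 9 (0.39), or month 3 sample 3 (0.35) or 4 (0.30). It was also lost in 9 of 16 other settings (limma adjusted p up to 0.441), among them without Sham 6 to 9 together (0.25). Of its small Maf partners, 2 rose over all months, Maff by 0.99 ± 0.24 (adjusted p = 0.00629) and Mafk by 0.62 ± 0.18 (adjusted p = 0.0179; 0.46 and not called without Sham 3, 4 and 10), and Mafg was at -0.05 ± 0.070 (adjusted p = 0.639), with 11 of 14 PSPI arrays below the sham mean. All 4 month 3 arrays lay above every sham for Maff. Vcp, the unfoldase that extracts ubiquitin-tagged proteins, fell by 0.19 ± 0.054 over all months (adjusted p = 0.0160) and was at 0.02 in month 3. Of 6 ubiquitin and E1 genes 0 passed over all months, where 24.4% of all genes did. Of 9 muscle ubiquitin ligases 1 rose (Trim54, 0.25, adjusted p = 0.0415) and 1 fell (Mdm2, -0.16, adjusted p = 0.0471), both lost in 14 or more of 24 fits that left out 1 array. In month 3, 3 of these ligases rose (17.2% of all genes did) and 0 fell (21.7% did). These 3 are named after their values were seen. Fbxo32 rose by 0.75 ± 0.14 (limma adjusted p = 0.00036), with 4 of 4 arrays above every sham. Trim54 rose by 0.36 (limma adjusted p = 0.0264) and Cbl by 0.39.

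Some of the genes that process and load peptides onto class I were also higher, and others were not. Canx lay below the sham mean on 13 of 14 PSPI arrays and Pdia3 on 10 of 14. Calr lay above it on 7 and below it on 7. Of 12 genes tested, 7 rose and 1 fell both over all months and in month 3. Of all genes, 10.8% rose and 13.6% fell over all months, and 17.2% rose and 21.7% fell in month 3. The 7 include Nlrc5, which was well above background on 7 of 10 shams and 4 of 5 month 2 arrays and so was tested through months 1 and 3 alone, and its change is not counted as support. B2m, the light chain of every class I molecule, was at 1.35 to 2.02 in the shams (median 1.55), 1.77 to 2.18 in month 1, 1.81 to 2.26 in month 2 and 2.37 to 2.65 in month 3. B2m rose by 0.90 ± 0.12 in month 3 (limma adjusted p = 4.71e-06) and by 0.58 ± 0.081 over all months (adjusted p = 7.31e-05). The heavy chains H2-K1, H2-D1 and H2-T23 rose by 1.01, 0.99 and 1.03 in month 3. Class I heavy chains are a family of near-identical genes, and cross-hybridisation between them was not tested. Tap1, the neighbour of Psmb9, was well above background on 14 arrays but on no whole group, so it was not tested.

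Of 12 tested genes that relay interferon signals, 1 rose and 2 fell over all months, and 4 rose and 2 fell in month 3, with a median of -0.02. The shares of all genes that rose and fell were 10.8% and 13.6% over all months, and 17.2% and 21.7% in month 3. Irf8 rose by 0.32 ± 0.11 over all months (limma adjusted p = 0.0396), lost in 12 of 24 fits that left out 1 array. Ifngr2, a chain of the interferon-gamma receptor, fell by 0.27 ± 0.056 over all months (adjusted p = 0.00200) and by 0.73 ± 0.080 in month 3 (adjusted p = 8.54e-07). Ifngr1, the other chain, went the opposite way in month 3, at 0.63 to 1.00 against 0.12 to 0.55 in the shams, with 4 of 4 arrays above every sham. It rose by 0.48 ± 0.12 there (adjusted p = 0.00319) and was at 0.15 ± 0.082 over all months (adjusted p = 0.188). Irf9 rose by 0.52 and Irf8 by 0.50 in month 3, and Ifngr1 and Irf9 are named after their values were seen. Socs1, an inhibitor of the pathway, fell by 0.44 ± 0.12 over all months (adjusted p = 0.0121; -0.31 and not called without Sham 3, 4 and 10). That call was lost in 7 of 15 other settings, where the value nearest 0 was -0.066.

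Markers of immune cells, in which the immunoproteasome is constitutive, were also higher in PSPI ventricles. Beside the marker counts that follow, 10.8% of all genes rose over all months and 17.2% in month 3. Of the 6 pan-leukocyte markers 5 were kept, and all 5 rose over all months and 3 in month 3. The mean of their levels, centred on sham, was -0.20 to 0.26 in the shams, 0.27 to 0.56 in month 1, -0.02 to 0.84 in month 2 and 0.36 to 0.69 in month 3. Of 10 macrophage and monocyte markers 8 were kept, of which 5 rose over all months and 4 in month 3, with a mean of -0.26 to 0.34 in the shams and 0.25 to 0.54 in month 3. Of 5 neutrophil markers 3 were kept. S100a8 and S100a9 were well above background on 5 and 9 of 10 shams and were kept through PSPI groups alone, so their higher values are not counted. The third, Csf3r, rose by 0.47 ± 0.14 over all months (limma adjusted p = 0.0190). The mean of the 3 was -1.50 to 0.68 in the shams and 1.25 to 2.85 in month 3. It includes S100a8 and S100a9, so it is not counted either. Of 10 T cell and NK cell markers 4 were kept, of which 0 passed over all months and 1, Gzma, in month 3, while Cd8a and Gzmb were well above background on 0 arrays. Of 5 B cell markers only Cd79b was kept, and through month 2 and month 3 alone (8 of 10 shams were well above background), so its value is not counted. Of 5 endothelial markers 1 rose over all months and 3 rose in month 3 (0 fell), with a mean of -0.09 to 0.11 in the shams, -0.08 to 0.12 in month 1, -0.05 to 0.13 in month 2 and 0.21 to 0.50 in month 3. The part of these cells in the Psmb8, Psmb9 and Psmb10 values was not tested.

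**Figure D5:**
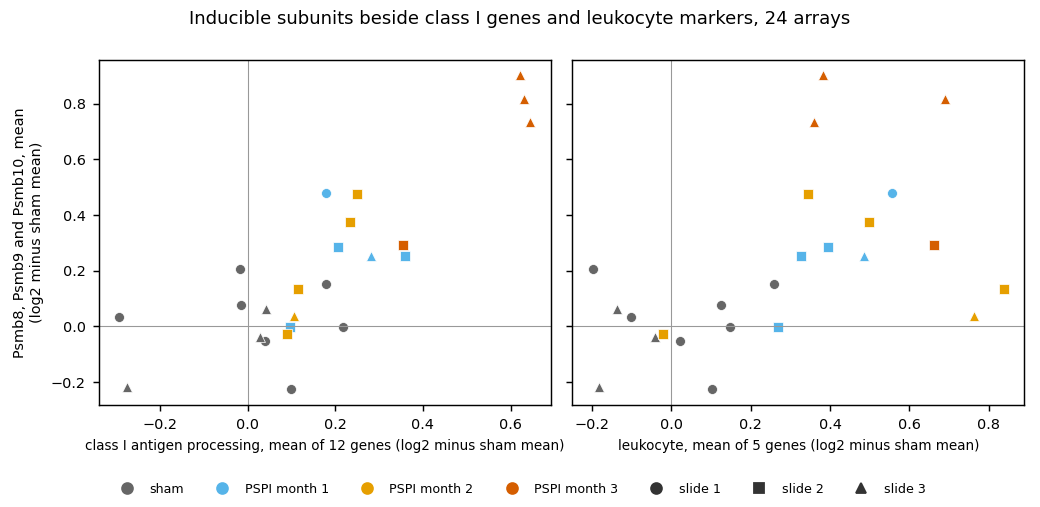
Mean level of Psmb8, Psmb9 and Psmb10 on each of the 24 arrays (vertical axis) against the mean of 12 class I genes (left) and of 5 leukocyte markers (right), in log2 with each gene centred on its sham mean, with colour for the group and marker shape for the slide. The 12 class I genes include Nlrc5, which was kept through months 1 and 3 alone. The 3 month 3 arrays on slide 3 are at 0.90, 0.73 and 0.82 on the vertical axis and month 3 sample 1, on slide 2, is at 0.29. Month 2 arrays are at -0.03 to 0.47 on the vertical axis, so month 3 and month 2 overlap there. They also overlap on the leukocyte axis (0.36 to 0.69 and -0.02 to 0.84).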

How the data were processed

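Right ventricular RNA, extracted with a QIAGEN RNeasy kit per the labels' protocols, had been amplified from 0.5 ug with Cy3 and hybridised to 24 one-colour Agilent arrays. The deposited intensity values came from Agilent Feature Extraction 10.7.3.1, per the submitters' processing notes, with probes placed on mm9 (NCBI37) per the file headers. The deposited table of the whole series, per its values, holds the background-subtracted intensity of the same spots (equal within a relative tolerance of 0.001 on all 62976 spots of each array). Columns of samples outside this series numbered 0.

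Control spots were dropped, as were 143 to 290 flagged outliers per array, and replicate spots of a probe were averaged. From log2 of the processed intensity the array's 75th percentile was subtracted, taken over 16946 probes flagged as well above background throughout. Probes were kept where a whole group carried that flag, and the brightest kept probe stood for its gene. Gene names came from the files, updated through RefSeq accessions where these matched (26582 probes), and 24584 probes had no name. All 4 groups entered 1 limma model (limma 3.58.1, R 4.3.3), with Benjamini-Hochberg adjustment over all 12474 genes and a threshold of 0.05. The procedure was checked on simulated data. The number of arrays limits the precision.

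The members and all gene lists were chosen with earlier results of these data known. Named were the catalytic pairs, the members past the threshold over all months or in month 3 (up to 10 with the smallest p in full), and from each related list up to 4 genes past the threshold over all months, and always Tap1, B2m, Nfe2l1 and Pomp. A further gene of that rule is not reported here. The other members passed in a single month or are given by their values. The alternatives were other scalings, filters and probe rules, normexp (offset 50), values from the deposited table, slide as a block or alone, close arrays averaged, array weights, a replicate block, fits on fewer groups, and each array left out. Fits without Sham 3, 4 and 10 or without Sham 6 to 9 were chosen after seeing the data. Genome sequence on mm9 was not used here.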

Additional observations from a re-analysis of the deposited data

Results flagged for a closer look

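Within a group of 4 to 10 arrays, an array was singled out when its gap to the nearest array, relative to the range of the group, passed Dixon's critical value for a group of that size. This was so in 10 of 172 groups (43 genes in 4 groups), and chance gives about 1 in 20. Among the shams these were Psmb8 in Sham 9 (low, level -2.69), Psmc4 in Sham 10 (low, -0.17) and Psmb2 in Sham 8 (high, -1.82). In month 1 they were Psmc1 in sample 4 (low, 2.75) and Psmc4 in sample 1 (high, 0.78). In month 2 they were Psmb3 in sample 4 (high, 3.07), Psma1 in sample 2 (high, 1.86) and Psmc5 in sample 2 (high, 0.70). In month 3 they were Psmd12 in sample 4 (low, 1.72) and Psmd5 in sample 1 (high, -1.79).

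Levels in PSPI ventricles differed between months for the members below, by limma's test of one month against another over all genes (adjusted p under 0.05). The 10 shams give no month and cancel in the test, so it compares the PSPI arrays of the months directly. A change with time alone was not tested. Against month 2, month 3 was lower for Psmb2 (-0.55), Psmb1 (-0.43), Psmd6 (-0.38), Psmc3ip (-0.41) and Psmd8 (-0.50). It was higher for Psmb9 (0.67), Psmb8 (0.58), Psmd4 (0.39), Psmc1 (0.35), Psmc5 (0.27) and Psmd13 (0.24). Against month 1, month 3 was lower for Psmb2 (-0.59), Psmb1 (-0.44), Psmd6 (-0.34), Psmc2 (-0.27), Psmc3ip (-0.37), Psme1 (-0.43) and Psmd8 (-0.38). It was higher for Psmd4 (0.40), Psmc1 (0.35), Psmb10 (0.53), Psmd3 (0.32), Psmd13 (0.23) and Psmb9 (0.42). In the 24 fits that left out 1 array, the calls of Psme1 and Psmd8 against month 1 and of Psmd13 against month 2 were each lost in 15. Those of Psmd13 against month 1 and Psmb8 against month 2 were lost in 9 and 5. The calls of Psmb1 and Psmb2 were kept in all 24. The part of the slide in these differences was not tested beyond the block and the single slides given with the counts, where fewer members passed.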

How the results depend on the processing

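Each setting below changed 1 choice. Over all months, members higher (2 as reported) numbered 0 within slide 3 alone and without month 3, 1 with close arrays averaged, and 8 with array weights and without Sham 6 to 9. Members lower (4) numbered 9 after quantile normalization, 11 with the 75th percentile over all probes, 1 with slide as a fixed block and with close arrays averaged, 0 within slide 3 alone, 8 with array weights and 2 without month 3. In month 1, 2 were higher with array weights. In month 2, members higher (1) numbered 0 after quantile normalization, with the 75th percentile over all probes, normexp, the deposited table, no filter, the mean of kept probes, slide 3 alone, close arrays averaged and without Sham 3, 4 and 10, 6 with array weights and 4 without Sham 6 to 9. Members lower in month 2 (3) numbered 1 with no filter, with slide as a fixed block and without Sham 3, 4 and 10, 0 within slide 3 alone and with close arrays averaged, 9 with array weights and 6 without Sham 6 to 9. In month 3, members higher (7) numbered 2 with the 75th percentile over all probes and within slide 3 alone, 4 with normexp and with the deposited table, and 3 with slide as a fixed block, with close arrays averaged and without Sham 3, 4 and 10. Members lower in month 3 (9) numbered 14 after quantile normalization and with array weights, 17 with the 75th percentile over all probes, 1 within slide 3 alone and 4 with close arrays averaged. Between months 2 and 1, 2 members were called within slide 2 alone and with array weights. Between months 3 and 2 (11), 6 were called with normexp and with the deposited table, 4 with slide as a fixed block and with only the groups of the contrast, 0 within slide 2 or slide 3 alone, 3 with close arrays averaged and 23 with array weights. Between months 3 and 1 (13), 8 were called with normexp, with the deposited table and without Sham 3, 4 and 10, 7 with no filter and with close arrays averaged, 6 with slide as a fixed block, 1 within slide 2 alone, 0 within slide 3 alone, 2 with only the groups of the contrast and 22 with array weights. The immunoproteasome minus constitutive change over all months was 0.640 with slide as a fixed block and 0.324 without month 3. Fits within a slide or with close arrays averaged had fewer samples, and the cause of the other shifts was not tested.

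Leaving out 1 array at a time gave, over all months, 2 to 3 members higher and 4 to 6 lower, 0 and 0 in month 1, 0 to 1 and 1 to 5 in month 2, and 4 to 8 and 5 to 12 in month 3. Between months it gave 0 (2 and 1), 6 to 19 (3 and 2) and 5 to 20 (3 and 1), and an immunoproteasome minus constitutive change of 0.438 to 0.499. Signs turned within single slides for Mdm2 over all months (0.0034 on slide 3), Psmb8 between months 3 and 2 (-0.056 on slide 2), Psme1 (0.10 on slide 3), Psmd8 (0.14 on slide 2) and Psmb9 (-0.028 on slide 2) between months 3 and 1, none past the threshold there.

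Whether the numbers in the titles pair the samples was not settled. Over 27 same-number pairs, correlations of deviations from the group means ran from -0.445 to 0.522 and 9 were over 0.1. Those between months 1 and 2 were all positive, from 0.191 to 0.522. Pairs with different numbers were not computed for comparison, and the part of the slide was not tested. With the replicate block, month 2 had 3 members higher, and the other counts stayed within 1.5 times. Slide as a random block had an estimated correlation of 0.0081. Array weights ran from 0.258 to 2.32. Dim probes carry more noise, and a level is not comparable between probes.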
